A study of Homo sapiens with 4 samples.

Results

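MHC class I molecules display peptides made inside a cell on its surface, where CD8+ T cells and natural killer cells read them. A heavy chain, encoded by an HLA gene, pairs with the invariant light chain beta-2-microglobulin (B2M). Peptides are pumped into the endoplasmic reticulum by the TAP1 and TAP2 transporter and loaded with the help of tapasin (TAPBP), while NLRC5 acts in the nucleus as the transactivator of the class I genes. Interferons are well-known inducers of this whole set, and tumors often lower it.

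Of the 20372 genes in the deposited table, 9 class I genes were taken by symbol: the heavy chain genes HLA-B, HLA-C, HLA-E, and HLA-F, the light chain gene B2M, the peptide loading genes TAP1, TAP2, and TAPBP, and the regulator NLRC5. TAP2 stands in the table under a pair of identifiers on chromosome 6, of which ENSG00000204267 holds the reads and ENSG00000250264 has 0 counts in every library, so the former was used. The cells were TPC1, a human papillary thyroid carcinoma line driven by a CCDC6-RET fusion, grown in DMEM with serum and exposed to the RET inhibitor BLU6864 for 6 h or for 24 h. There were 2 libraries at each time, from 1 cell line, and both groups received the inhibitor, so every difference below is between times in the drug. The dose is 100 µM in the labels and 100 nM in the methods, and the titles of the 24 h libraries carry the mark of a re-analysis, which cannot be told apart from time. Vehicle libraries were not analysed here. Nothing states that the libraries came from separate cultures, so p-values measure the spread between these libraries, which may be technical.

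Libraries held between 23917056 and 27457040 counts on genes. All 9 genes were among the 12876 that passed the filter on low counts, and these were compared by edgeR's quasi-likelihood test with adjustment over all of them. A normalized count is the raw count put on a common depth with edgeR's TMM factors, and a positive log2 fold change means a higher count at 24 h. Against the label, the thyroid factor PAX8 was abundant, with 19124 to 22978 raw counts, KRT8 (1720 to 1811), KRT18 (856 to 1185), and FOXE1 (273 to 556) were present, and TG (98 to 245) and KRT19 (37 to 125) were low, whereas NKX2-1 and TSHR had 0 in every library and the epithelial genes EPCAM and CDH1 had at most 11. Of the 12 markers, 6 were tested, and 2 were higher, 2 lower, and 2 not called, compared with 33.0% higher and 32.6% lower of all genes tested. The summed counts of the 12 were 22284 to 26350 at 6 h and 23542 to 25340 at 24 h. Of 13 leukocyte markers, 8 had at most 3 counts in any library, among them CD3E, CD3D, and MS4A1, and PTPRC had at most 5. ITGAX (462 and 462 counts at 6 h, 123 and 129 at 24 h), CD14 (47 and 41, then 85 and 91), FCER1G, and ITGAM were the ones with more than 3 counts in both libraries of a time. The summed counts of the list were 531 to 537 at 6 h and 226 to 237 at 24 h, lower at 24 h, and its part in the class I values was not tested. RNA was measured in bulk, so fewer cells of a kind and less RNA per cell cannot be told apart.

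The class I promoters share short regulatory letters, which are shown because the genes they precede did not all move the same way. The RefSeq table (GRCh38.p14) held promoter windows from 250 bases before to 50 after the start for 7 of the 9 members, and HLA-E and NLRC5 had none there. Each line below gives the stretch from the first to the last match that lies between base -200 and the start, with 6 bases on either side, on the gene's own strand. Capitals mark matches on either strand to the interferon-stimulated response element (ISRE, GAAANNGAAA or the shorter GAANNGAAA), the X2 box (TGACGC), the Y box (CCAAT), and the NF-kappaB site.
HLA-B, chr6:31357225-31357362, minus strand: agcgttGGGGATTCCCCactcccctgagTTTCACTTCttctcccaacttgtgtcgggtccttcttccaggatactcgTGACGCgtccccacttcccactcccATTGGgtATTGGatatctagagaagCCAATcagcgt
HLA-C, chr6:31272138-31272290, minus strand: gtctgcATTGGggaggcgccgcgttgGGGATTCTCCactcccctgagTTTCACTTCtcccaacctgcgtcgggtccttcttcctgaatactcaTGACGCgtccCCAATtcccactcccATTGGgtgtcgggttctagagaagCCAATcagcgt
HLA-F, chr6:29723272-29723387, plus strand: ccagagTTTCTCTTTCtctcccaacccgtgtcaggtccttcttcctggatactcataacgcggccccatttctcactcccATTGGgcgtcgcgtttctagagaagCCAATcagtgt
B2M, chr15:44711367-44711478, plus strand: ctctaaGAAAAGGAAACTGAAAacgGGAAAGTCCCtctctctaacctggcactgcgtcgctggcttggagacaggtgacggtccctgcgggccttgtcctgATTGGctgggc
TAP1, chr6:32853761-32853844, minus strand: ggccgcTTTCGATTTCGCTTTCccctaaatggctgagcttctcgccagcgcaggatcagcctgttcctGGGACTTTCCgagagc
TAP2, chr6:32838763-32838808, minus strand: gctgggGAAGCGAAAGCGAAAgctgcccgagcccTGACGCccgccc
TAPBP, chr6:33314077-33314140, minus strand: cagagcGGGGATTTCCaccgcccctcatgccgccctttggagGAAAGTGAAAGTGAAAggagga

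An ISRE match of either length lay in 7 of the 7 windows, compared with 10.6% of the 35116 promoter windows in the table. It began at base -155 in HLA-B, -151 in HLA-C, and -156 in HLA-F, nearer the start in TAP2 (-63 and -58, overlapping matches), and nearest in TAPBP (-20 and -14). In B2M, TAP1, and TAPBP, 2 strict matches overlapped. The NF-kappaB site was found in 5 windows (11.3% of all), the X2 box in 3 (9.14% of all), and the Y box in 5 (34.6% of all). The Y box is CCAAT on one strand and ATTGG on the other, and both strands were counted for every motif. TAP1 has 2 windows in the table, and the more upstream one was used. These matches describe letters and were not tested as binding sites.

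Of the 9 genes, 7 were higher at 24 h and 1 was lower, with HLA-E showing the largest fold (1.51-fold). With an adjusted P under 0.05, the higher genes were HLA-B, HLA-C, HLA-E, HLA-F, B2M, TAPBP, and NLRC5 (7 of 9, compared with 33.0% of the 12876 genes tested), and the lower gene was TAP2 (1 of 9, compared with 32.6%). TAP1 was not called. The median log2 fold change of the 9 members was 0.34, beside 0.0029 over all genes tested. The study's methods state a cutoff for lower genes alone, a log2 fold change under -0.5 with P under 0.01, which was mirrored here for higher genes. By the mirrored cutoff, HLA-E was the one higher gene (1 of 9, compared with 17.4% of all) and by the stated cutoff TAP2 was the one lower gene (1 of 9, compared with 17.7%). Both 24 h libraries lay above both 6 h libraries in 8 members, TAP1 included (41.0% of all genes), and below them in TAP2 (40.8%).

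**Figure D1:**
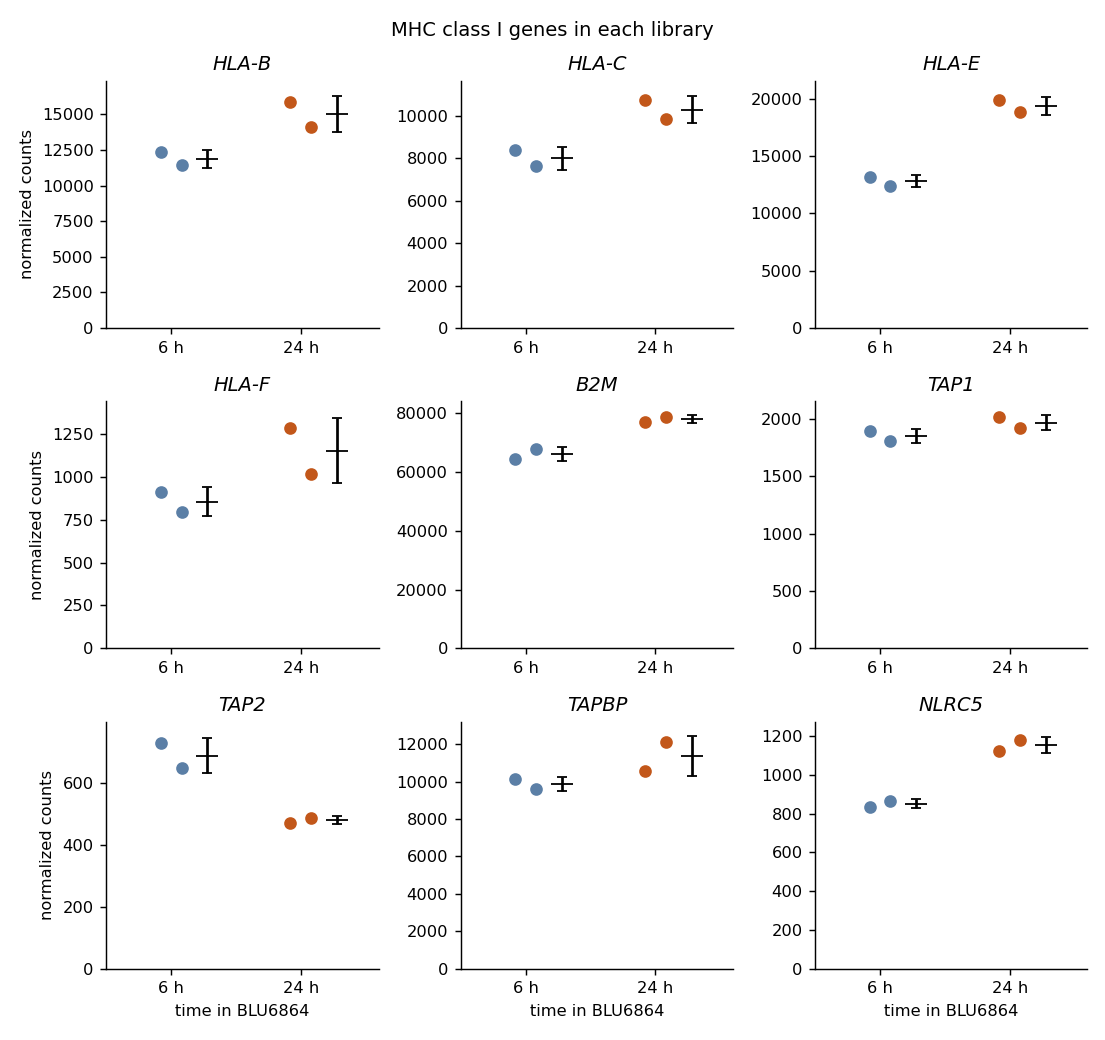
Normalized counts (vertical axes, from 0) of each class I gene in the 2 libraries at 6 h (blue) and the 2 at 24 h (orange) of BLU6864, with the mean and SD in black. HLA-E shows the largest gap as a fold among the higher genes, from 12794 to 19359 on average, TAP2 is the one gene that is lower at 24 h, and the TAP1 points at 6 h and 24 h lie close together.

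Among the heavy chains, which carry the peptide groove, HLA-E had the largest fold change, although its interval overlapped those of the others and the difference between genes was not tested. HLA-E presents leader peptides of other class I chains to the NKG2A receptor of natural killer cells. Its normalized counts (ENSG00000204592, chromosome 6 of hg19, 30457244 to 30461982) were 13178 and 12411 at 6 h, then 19892 and 18825 at 24 h. The lowest 24 h value was well above the highest 6 h value. The log2 fold change was 0.60 (standard error 0.0781, adjusted P = 2.06e-07), a 1.51-fold rise with a 95% interval of 1.35 to 1.69.

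HLA-B and HLA-C are classical chains that present peptides to CD8+ T cells, and HLA-C is also a main ligand of killer-cell receptors. HLA-B (ENSG00000234745, chromosome 6 of hg19, 31321649 to 31324965) had 12340 and 11425 normalized counts at 6 h and 15895 and 14106 at 24 h. HLA-C (ENSG00000204525, 31236526 to 31239907) had 8393 and 7629 at 6 h and 10735 and 9863 at 24 h. The groups did not overlap in either gene, although the 24 h libraries of HLA-B differed from each other by more than those at 6 h. Their log2 fold changes were close, 0.34 (standard error 0.0803, adjusted P = 0.000672) for HLA-B and 0.36 (standard error 0.0773, adjusted P = 0.000198) for HLA-C.

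HLA-F, a nonclassical chain with limited expression in most tissues, was far less abundant. It had 913 and 795 normalized counts at 6 h and 1285 and 1016 at 24 h (ENSG00000204642, chromosome 6 of hg19, 29690552 to 29706305). Library 1 at 24 h stood above library 2, and the SD there was 190 compared with 83.4 at 6 h. The log2 fold change was 0.43 (standard error 0.0945, adjusted P = 0.000272), and without library 1 of 24 h it was 0.26 with an adjusted P of 0.0215.

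Taken as a sum, the 4 heavy chain genes had 34824 and 32260 normalized counts at 6 h and 47807 and 43810 at 24 h. HLA-E supplied 37.8% and 38.5% of their raw counts at 6 h and 41.6% and 43.0% at 24 h. The share of HLA-B was lower at 24 h, 33.2% and 32.2% compared with 35.4% in both 6 h libraries, and that of HLA-C was lower as well (24.1% and 23.6%, then 22.5% in both). The share of HLA-F overlapped between the times. With 2 libraries a group, an exact permutation test on such shares cannot go below 0.333, so none was run.

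B2M was the most abundant member and ranked 19 among all genes by mean normalized count. It had 64436 and 67839 normalized counts at 6 h and 77054 and 78861 at 24 h (ENSG00000166710, chromosome 15 of hg19, 45003675 to 45011075). The groups were separate, but the rise was small, 0.24 on the log2 scale (standard error 0.0875, adjusted P = 0.0198). This call was lost when counts were scaled by library size alone (log2 fold change 0.19, adjusted P = 0.0549), and without library 1 (adjusted P = 0.106) or library 2 (adjusted P = 0.155) of 24 h. The count of B2M per heavy chain count was 1.85 and 2.10 at 6 h and 1.61 and 1.80 at 24 h. The highest 24 h value thus came close to the lowest 6 h value.

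**Figure D2:**
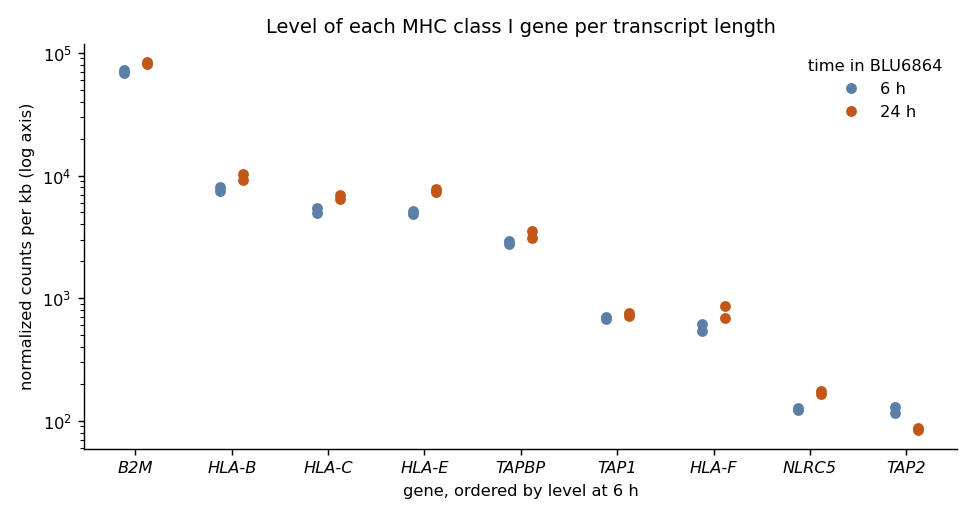
Normalized counts per kilobase of transcript (log axis) for the 9 class I genes, ordered by their level at 6 h, with 1 point per library at 6 h (blue) and 24 h (orange). B2M stands far above the rest at 70136 on average at 6 h, HLA-B, HLA-C, and HLA-E follow between 5021 and 7736, and NLRC5 lies apart from TAP2 at 24 h but not at 6 h.

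Per length, which allows levels to be compared between genes, B2M had 70136 normalized counts per kilobase at 6 h. HLA-B followed with 7736, and HLA-C (5195) and HLA-E (5021) differed by less than the gap between libraries. TAPBP (2861), TAP1 (688), and HLA-F (577) came next, and NLRC5 (125) and TAP2 (122) were alike. At 24 h the level per kilobase of HLA-E was 7598 and that of HLA-C 6679. HLA-F (777) was then close to TAP1 (733), and NLRC5 (170) was above TAP2 (85.0). Lengths are those of the MANE Select transcripts of GENCODE 44, which may not be the isoforms these cells used.

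The transporter genes, whose products form a heterodimer that carries peptides into the endoplasmic reticulum, went apart. TAP2 (ENSG00000204267, chromosome 6 of hg19, 32789610 to 32806557) had 729 and 648 normalized counts at 6 h and 471 and 489 at 24 h. Both 24 h libraries were below both 6 h libraries. The log2 fold change was -0.52 (standard error 0.0911, adjusted P = 1.83e-05), a level 1.43-fold higher at 6 h than at 24 h. TAP1 (ENSG00000168394, 32812986 to 32821755) had 1892 and 1804 normalized counts at 6 h and 2015 and 1918 at 24 h. The change, 0.09 on the log2 scale (standard error 0.0704), was not called (adjusted P = 0.266), and its 95% interval, from -0.05 to 0.23, lay wholly above the interval of TAP2, from -0.71 to -0.33. The difference between the genes was not tested further. The count of TAP2 per TAP1 count fell from 0.385 and 0.359 at 6 h to 0.234 and 0.255 at 24 h. Both promoters shown earlier hold overlapping ISRE matches, strict ones in TAP1 and a shorter and a strict one in TAP2. Their part in these values was not tested.

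Tapasin, encoded by TAPBP, bridges the transporter and the empty class I molecule and edits the bound peptide. TAPBP (ENSG00000231925, chromosome 6 of hg19, 33267471 to 33282164) had 10125 and 9614 normalized counts at 6 h and 10589 and 12102 at 24 h. The lower 24 h library was only just above the higher 6 h library. TAPBP rose by 0.20 on the log2 scale (standard error 0.0791, adjusted P = 0.0281). The call was lost with library size alone (0.16, adjusted P = 0.0809) and without library 2 of 6 h (0.16, adjusted P = 0.101). The value moved most with the 24 h libraries, to 0.11 (adjusted P = 0.382) without library 2 and to 0.30 (adjusted P = 0.0127) without library 1.

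NLRC5, which binds class I promoters together with the RFX, CREB, and NFY factors over the X and Y boxes, was itself higher at 24 h. It had 834 and 867 normalized counts at 6 h and 1124 and 1182 at 24 h (ENSG00000140853, chromosome 16 of hg19, 57023397 to 57117443). The libraries of each time were close to each other and far from those of the other time. The log2 fold change was 0.44 (standard error 0.0776, adjusted P = 2.02e-05). Of the 15 promoter factors listed, 4 were higher, 2 lower, and 9 not called, compared with 33.0% higher and 32.6% lower of all genes tested. The NLRC5 partners NFYA, NFYB, NFYC, CREB1, ATF1, and RFXANK were among those not called, with log2 fold changes from -0.12 (NFYC) to 0.04 (RFXANK). RFXAP, the remaining RFX subunit, was not called either, but its value was -0.30 (adjusted P = 0.0614) and both 24 h libraries lay below both 6 h libraries. The count of lower factors was 1 without either library of 24 h and 4 with library size alone. STAT2 (0.55) and IRF9 (0.74), which act in interferon signaling, and the NF-kappaB subunit RELA (0.43) were higher. IRF9 was low, with 41 to 92 counts in a library, and lost the call with DESeq2 (adjusted P = 0.0601) and without library 1 of 24 h (adjusted P = 0.0563). IRF1, the classic activator of class I genes, had a log2 fold change of -0.09 with an adjusted P of 0.274. NFKB1 was lower (-0.20, adjusted P = 0.0130), a call lost without library 1 (adjusted P = 0.0713) or library 2 (adjusted P = 0.0510) of 24 h, and RFX5, an NLRC5 partner, was lower as well (-0.31).

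**Figure D3:**
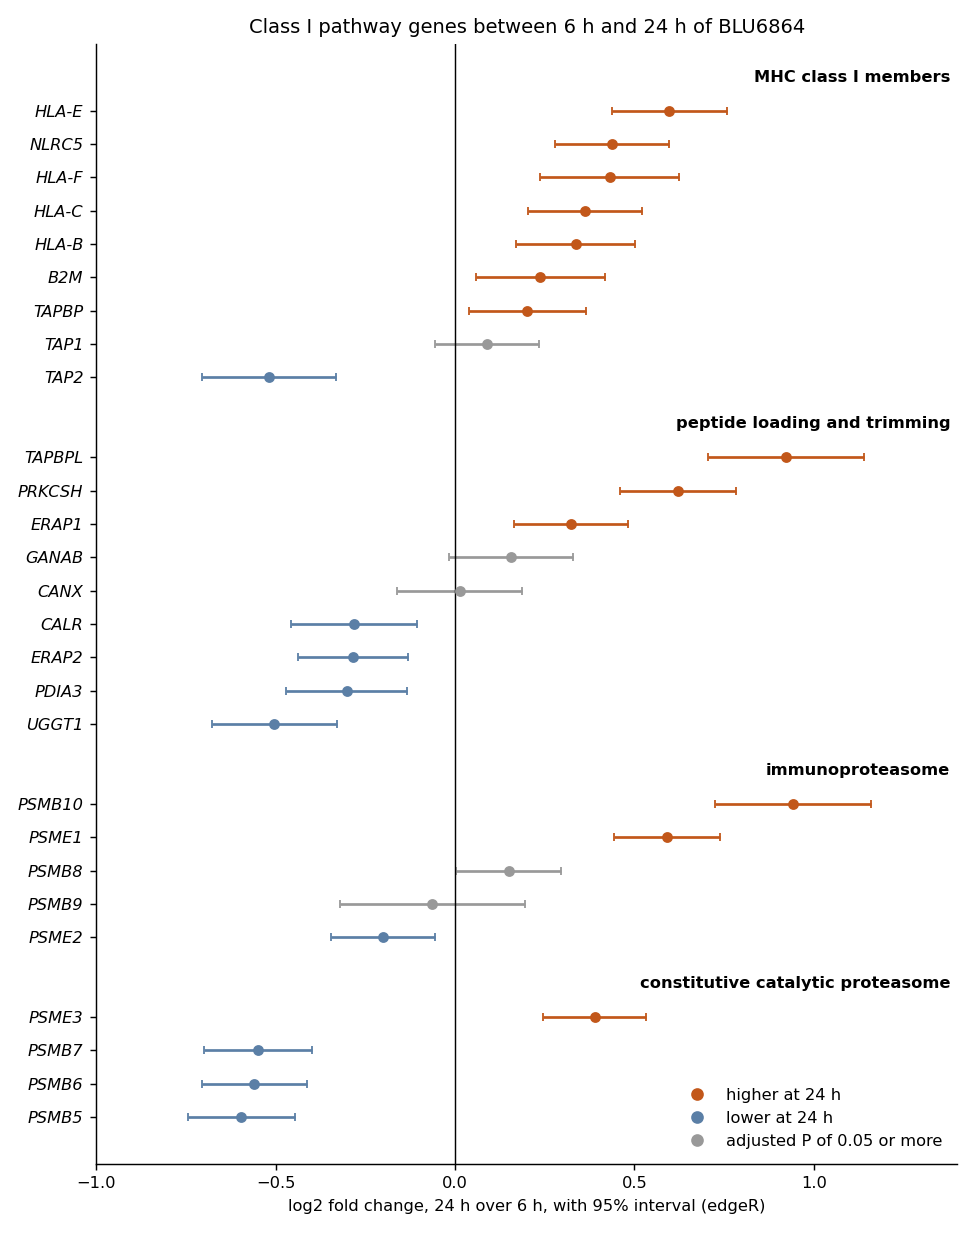
Log2 fold change of 24 h over 6 h with its 95% interval (edgeR) for the 9 class I genes and 3 lists of related genes, orange for higher, blue for lower, and gray for an adjusted P of 0.05 or more. Most class I genes sit between 0.20 and 0.60, TAP2 at -0.52, and the constitutive subunits PSMB5, PSMB6, and PSMB7 near -0.55 to -0.60.

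The immunoproteasome, a form of the proteasome favored for class I peptides, uses PSMB8, PSMB9, and PSMB10 in place of PSMB5, PSMB6, and PSMB7, and PSME1 and PSME2 form its activator. Of these 5 genes, 2 were higher, 1 lower, and 2 not called, compared with 33.0% higher and 32.6% lower of all genes tested. PSMB10 had 231 and 237 raw counts at 6 h and 476 and 453 at 24 h, up by 0.94 on the log2 scale (adjusted P = 1.50e-08), and PSME1 rose by 0.59 (adjusted P = 5.71e-08). PSMB8 had a log2 fold change of 0.15 (adjusted P = 0.0692), which passed with upper quartile scaling (adjusted P = 0.0313) and with the replicate number as a block (adjusted P = 0.0268). PSMB9 had 259 and 284 counts at 6 h and 303 and 233 at 24 h, with overlapping normalized values and a log2 fold change of -0.06 (adjusted P = 0.673), which became 0.14 (adjusted P = 0.380) without library 2 of 24 h. PSME2 was lower (-0.20, adjusted P = 0.0142), a call lost without library 2 of 24 h (adjusted P = 0.107) or library 2 of 6 h (adjusted P = 0.0972). Its partner in the activator thus moved the other way.

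Of 4 genes in the constitutive list, 1 was higher and 3 lower, compared with 33.0% higher and 32.6% lower of all genes tested. The constitutive subunits were the 3 lower genes. PSMB5, PSMB6, and PSMB7 had log2 fold changes of -0.60, -0.56, and -0.55, whereas PSME3, a nuclear activator, had 0.39. The ratio of each immunoproteasome subunit to the one it replaces was therefore higher at 24 h in every pair. For PSMB8 to PSMB5 it was 0.447 and 0.441 at 6 h and 0.762 and 0.726 at 24 h. For PSMB10 to PSMB7 it was 0.0278 and 0.0240 at 6 h and 0.0764 and 0.0690 at 24 h. The ratio of PSMB9 to PSMB6 showed the smallest separation, with 0.0612 and 0.0565 at 6 h and 0.0928 and 0.0727 at 24 h. In each pair the denominator fell, and in the PSMB10 pair the numerator rose as well.

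**Figure D4:**
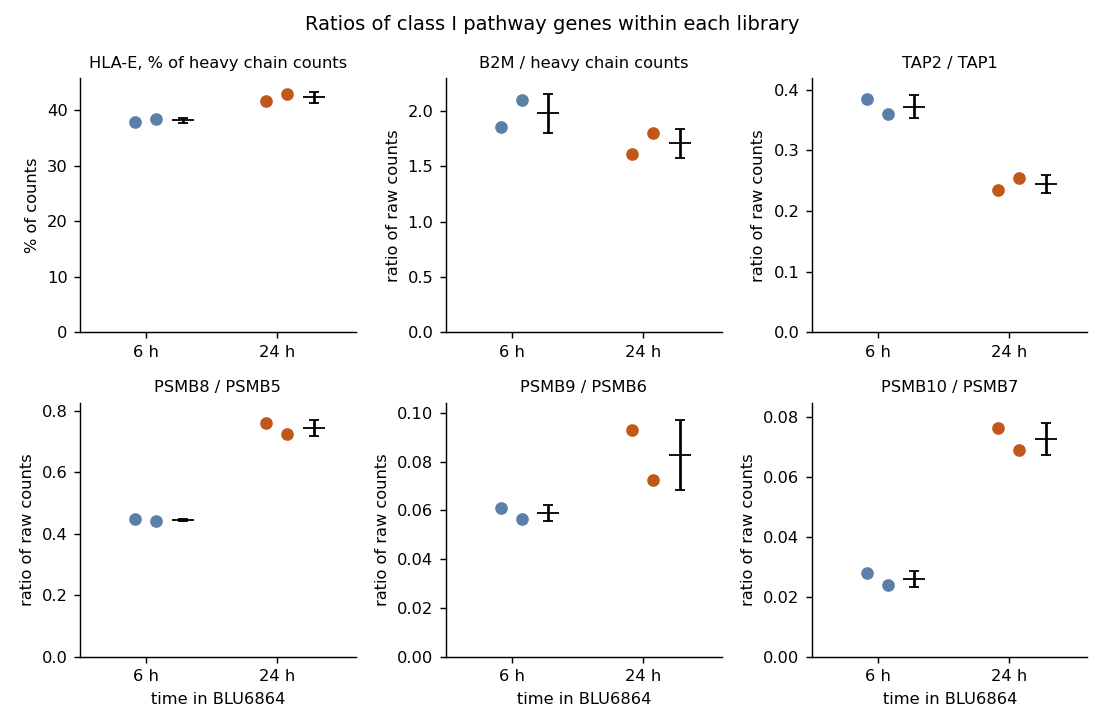
Share of HLA-E among the raw counts of 4 heavy chain genes (percent) and 5 ratios of raw counts within a library, at 6 h (blue) and 24 h (orange), with the mean and SD in black and axes from 0. TAP2 to TAP1 and B2M to heavy chains are lower at 24 h, and the 3 ratios of immunoproteasome to constitutive subunits are higher.

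Of 9 genes that trim and load peptides, 3 were higher, 4 lower, and 2 not called, compared with 33.0% higher and 32.6% lower of all genes tested. The tapasin relative TAPBPL had 267 and 259 raw counts at 6 h and 535 and 496 at 24 h, up by 0.92 on the log2 scale (adjusted P = 2.02e-08). PRKCSH, a glucosidase subunit of the endoplasmic reticulum, rose by 0.62. The aminopeptidases that trim peptides to length went in opposite directions, 0.32 for ERAP1 and -0.28 for ERAP2. Without library 2 of 6 h, the ERAP1 value was 0.20. UGGT1, which returns incompletely folded glycoproteins to the calnexin cycle, was lower (-0.50), with -0.33 without library 1 of 24 h. CALR and PDIA3, partners of tapasin in the loading complex, were lower by -0.28 and -0.30, and CANX was not called. Of CALR, PDIA3, and ERAP2, not all kept the call in every fit with a library left out. Of 6 cytosolic peptidases, 1 was higher and 3 lower, with LAP3, an interferon-inducible aminopeptidase, at 0.88 and TPP2 at -0.48.

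Upstream of these factors, most interferon receptor genes were lower. Of 10 genes of this signaling, 3 were higher and 6 lower, compared with 33.0% higher and 32.6% lower of all genes tested. IFNGR2 (-1.32), IFNAR1 (-0.74), and IFNAR2 (-0.78) were lower at 24 h, and IFNGR1 was not called. The kinases JAK1 (0.71) and JAK2 (1.02) and the feedback protease USP18 (1.57) were higher, while the feedback inhibitors SOCS1 (-1.86) and SOCS3 (-0.97) were lower. Of 10 interferon genes, 8 had at most 3 counts in every library and IFNA1 had at most 4. IFNE alone was tested, with 41 and 58 counts at 6 h and 25 and 32 at 24 h (log2 fold change -0.84, adjusted P = 0.00651). This call was lost with DESeq2 (adjusted P = 0.103), without library 1 of 24 h (adjusted P = 0.0716), and without library 2 of 6 h (adjusted P = 0.104).

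Reads of class I heavy chains can match more than one gene. Among the 50-base windows of each MANE transcript, 2.56% of those of HLA-B, 6.76% of HLA-C, 6.16% of HLA-E, and 1.89% of HLA-F also occur in a transcript of a gene elsewhere in GENCODE 44. Counting annotated genes that overlap them as well, the shares were 20.6% for HLA-B, 35.4% for HLA-F, 21.3% for TAP1, 35.3% for TAP2, and 41.3% for TAPBP. With windows of 100 bases, the share elsewhere was at most 0.612%, but with overlapping genes it was still 12.04% for HLA-B, 24.4% for HLA-F, 18.6% for TAP1, 34.7% for TAP2, and 38.7% for TAPBP. B2M and NLRC5 shared no window. The reference alleles may differ from those of TPC1. The methods name a stranded TruSeq kit and the labels a TruSeq RNA protocol, and neither the counting program nor its use of strand or shared reads is given. Levels of the genes with shared windows are therefore uncertain. TAP1 overlaps PSMB9 in the deposited positions, and PSMB8 lies 506 bases from TAP1, so reads in the overlap could be assigned only if the counting used strand. Neither of these neighbors was called.

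The other genes of the chromosome 6 interval that holds most of these genes were divided. Between the start of HLA-F and the end of TAPBP (29690552 to 33282164 in hg19), 90 of 142 other genes were tested. Of these, 22 were higher, 24 lower, and 44 not called, compared with 33.0% higher and 32.6% lower of all genes tested. Their median log2 fold change was -0.02. MICA, the gene next to HLA-B, had 1319 and 1431 raw counts at 6 h and 823 and 801 at 24 h. MICA, a stress ligand of the NKG2D receptor, was lower by edgeR (-0.81, adjusted P = 5.97e-10), opposite in sign to HLA-B. TRIM69 beside B2M was lower (-0.63) and CPNE2 beside NLRC5 was higher (0.75), whereas PATL2 beside B2M and ZBTB22 and RGL2 on either side of TAPBP were not called.

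The 6 listed repressors were divided by kind. The 3 Polycomb genes, which are known to silence class I genes, were lower, and the 3 others were higher. Of all genes tested, 33.0% were higher and 32.6% lower. The higher count rested partly on 1 library and was 1 without library 2 of 24 h, while the lower count was 3 under every alternative run. EZH2, the catalytic subunit, had a mean normalized count of 991 at 6 h and 281 at 24 h, down on the log2 scale (-1.82, edgeR adjusted P = 1.56e-15). SUZ12 (-0.59) and EED (-0.38), its core partners, were lower too. The higher genes were the ubiquitin ligase WWP2 (0.53), TMEM127 (0.25), and SPPL3 (0.22).

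Class I-like molecules share the fold but mostly serve other receptors, and the list here also held the nonclassical heavy chain HLA-G. Of 15 genes, 12 were tested, and 2 were higher, 6 lower, and 4 not called, compared with 33.0% higher and 32.6% lower of all genes tested. The median log2 fold change was -0.40. HLA-G was the weaker of the 2 higher genes (0.30, edgeR adjusted P = 0.0446), and its call is the one lost in the settings named next. The higher count was 1 with DESeq2, with library size alone, with at least 10 counts in every library, and without library 1 of 24 h. Among the NKG2D ligands, RAET1E (-2.96), RAET1G (-1.53), and ULBP2 (-1.06) were lower, as was MICA. ULBP1 (0.26), ULBP3 (-0.08), and MICB (-0.46) were not called. RAET1G was low, with 31 and 34 raw counts at 6 h and 9 and 14 at 24 h. RAET1E had 159 and 190 raw counts at 6 h and 21 and 25 at 24 h. FCGRT, the neonatal Fc receptor, which also pairs with B2M, was higher (0.96), from a mean normalized count of 2529 to 4904.

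The class II pathway, which presents peptides from outside the cell, was nearly silent. Of 14 genes, 2 were tested, 1 higher and 1 lower, compared with 33.0% higher and 32.6% lower of all genes tested. The higher count was 0 with DESeq2 and with at least 10 counts in every library, and 2 with no filter on low counts. It also moved in some fits with a library left out. CIITA, the class II counterpart of NLRC5, had 7 and 8 counts at 6 h and 11 and 6 at 24 h and was not tested. HLA-DMA had 6 and 6 counts at 6 h and 22 and 17 at 24 h (log2 fold change 1.64, edgeR adjusted P = 0.00275), a call lost with DESeq2 (adjusted P = 0.0697), and the lysosomal protease CTSS was lower (-0.45, adjusted P = 0.00876), a call lost with DESeq2 (adjusted P = 0.0941) and without library 2 of 24 h (adjusted P = 0.109) or library 2 of 6 h (adjusted P = 0.163).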

How the data were processed

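RNA sequencing libraries (TruSeq, stranded per the methods) of TPC1 cells were compared between 24 h and 6 h of BLU6864. Reads are 50 bp single-end in the labels and paired-end in the methods. The authors aligned them with STAR (2.3 in the submitters' processing notes) to hg19 and deposited raw counts per gene, with counting program and strand setting not given in the sources used here. The authors also deposited a normalized signal (counts divided by DESeq2 size factors) and their own log2 fold changes, with standard errors, a Wald score, and p-values, none of which were used. No column of another sample was left aside.

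Counts were filtered (filterByExpr), TMM-scaled, and tested with edgeR 4.0.16 in R 4.3.3 by the quasi-likelihood test with time as the only term. P values were adjusted by Benjamini-Hochberg over 12876 genes (99.97% of counts), with a threshold of 0.05. The standard error is the log2 fold change over the square root of F. On simulated counts of these genes, 48% of changes of 0.3 on the log2 scale, 80% of 0.5, and 92% of 1 were recovered. The simulation changed far fewer genes than were called in the data. Libraries with the same number deviated together weakly (correlation 0.0844). Alternatives were DESeq2 1.42.0, other scalings and filters, a replicate block, the methods' cutoff for lower genes (mirrored here for higher genes), and each library left out. Those for related genes were added after seeing the data. Promoter letters came from RefSeq (GRCh38.p14) and gene positions from the deposited table (hg19).

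The genes and lists were chosen with earlier results of these data known. Named from each list were the 4 called genes with the largest change, all immunoproteasome genes, NFKB1, RELA, IRF1, CIITA, markers over 3 counts in both libraries of a time, and neighbors of members. Some genes that this rule names are not reported here. CALR, PDIA3, CANX, ERAP2, RFX5, RFXANK, NFYA, NFYB, NFYC, CREB1, ATF1, RFXAP, IFNAR1, IFNAR2, IFNGR1, JAK1, SOCS3, SPPL3, TMEM127, CDH1, and IFNA1 were named after their values were seen. So were ULBP1, ULBP3, and MICB.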

Additional observations from a re-analysis of the deposited data

How the results depend on the processing

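Of 90 values of the 9 class I genes under alternative settings, 84 kept their direction and their side of the threshold and 6 lost significance, all of them of B2M or TAPBP. With the methods' cutoff for lower genes mirrored for higher genes, 1 class I gene was higher instead of 7. The median log2 fold change of the class I genes, 0.34, ranged from 0.26 without library 1 of 24 h to 0.41 without library 2 of 24 h. With a replicate block, 7 class I genes were higher and 1 lower, as without it, with a median of 0.33, and over all genes the calls went from 4247 to 4524 higher and from 4196 to 4448 lower. The shared numbers do not show that the libraries were paired. Of the values of other named genes, 422 kept their call, 13 lost it, 2 gained it, and 1 reversed: PSMB9, at -0.06, ranged from -0.28 without library 1 to 0.14 without library 2 of 24 h. Of the counts per related list, 219 stayed within 1.5 times and 21 moved further. Scaling by library size alone moved the median of all genes to -0.040. With 2 libraries a time, each leave-out fit assumed that the lone library varied like the others, and the simulated recovery of 48% at a log2 change of 0.3 limits what can be read from genes not called, such as TAP1.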

Other observations

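The genes outside the set whose centred log2 CPM over the 4 libraries lay nearest to the mean profile of the 9 class I genes were POP1 (distance 0.0125, log2 fold change 0.23), CTTNBP2NL (0.0127, 0.24), and EXT2 (0.0156, 0.23). With 4 libraries in 2 times, such a likeness holds little beyond the difference between times.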
